A study of Mus musculus with 4 samples.

Results

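The Hox genes are the homeobox transcription factors of the 4 mammalian Hox clusters, and they were taken here as every protein-coding gene whose symbol is Hoxa, Hoxb, Hoxc or Hoxd followed by a number. In the GENCODE M21 annotation of the mm10 mouse genome 39 of 21938 protein-coding genes met that rule, 11 in the Hoxa cluster on chromosome 6, 10 in Hoxb on chromosome 11, 9 in Hoxc on chromosome 15 and 9 in Hoxd on chromosome 2. The mark measured was trimethylation of lysine 4 of histone H3 (H3K4me3), mapped by chromatin immunoprecipitation and sequencing in the left cerebral cortex. All tissue came from female B6CASTF1/J mice, the F1 hybrid of C57BL/6J and CAST/EiJ, at 2 months of age, and no treatment, mutation or second tissue was compared. The 4 libraries were 2 technical replicates from each of 2 pools, named J and I, each of 4 cortex biosamples with fragments of 200 to 600 bases. The pools share 1 donor record. Since no label ties biosamples to individual mice, differences between pools may be partly technical.

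Hox proteins give cells along the head-to-tail axis of the embryo their regional identity, and the order of the genes along a cluster follows the order of their domains along that axis, with low numbers reaching the hindbrain and high numbers the trunk, tail and limbs. Genes with the same number in different clusters, called paralogs, descend from 1 ancestral gene. The forebrain, from which the cortex forms, lies in front of the Hox domains, and in cells that do not use them the clusters are known to be held silent by the Polycomb group proteins. H3K4me3 is written by the MLL and COMPASS enzymes and is typical of promoters rich in CpG dinucleotides, a class to which most Hox promoters belong.

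A promoter is called marked here when a peak reached to within 1000 bases, upstream or downstream, of any annotated transcript start of the gene. The authors deposited 4 peak lists: 1 for pool J (21573 peaks), 1 for pool I (24508), 1 replicated list made from both pools (25446) and 1 called on the pooled reads of both (26286). Of the replicated peaks 24595 stood in the pooled-read list with the same position and values, so these lists are not separate evidence. The enrichment of a peak is the authors' own value, a ratio taken as fold over control, and it serves only to describe and rank peaks within a list. No read numbers were to hand, so the depth is unknown, and with 1 list per pool no p-value between pools was computed. Markers were set beside the tissue label: all 10 telencephalon genes were marked, with an enrichment of 12.9 at Emx1 and 10.3 at Emx2, and a median of 18.5. Of all protein-coding promoters 65.2% were marked in the replicated list. In the decile of observed-to-expected CpG ratio that holds this list's median, 0.538, it was 92.9%. The count alone therefore says little about the tissue. Of 14 hindbrain and spinal cord markers, given below, 6 were marked.

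The cortex lists held few Hox peaks. In the replicated list 5 of 39 Hox promoters were marked, against 65.2% of all protein-coding promoters. Hoxa4, Hoxa7, Hoxc6 and Hoxd1 were among them, and 12.8% of the family carried a peak. The pool J list marked 3 of 39, namely Hoxa7, Hoxc6 and Hoxd1, where 63.9% of all promoters were marked. The pool I list marked 4 of 39, those 3 among them, where 64.8% of all promoters were marked. The pooled-read list marked the replicated 5 and Hoxd9, where 65.4% of all were marked. In bulk tissue, a mark carried by few cells and a weak mark carried by many cannot be told apart.

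Sequences of marked and unmarked stretches are shown first, each as the strand of the gene read 5′ to 3′. Each ends at the base before a transcript start and is in lower case with every CpG dinucleotide in capitals. The first is the 188-base part of the Hoxa7 peak that lies upstream of the start it covers, on the minus strand at chr6:52221855-52222042. The second is the 250 bases before the start of Hoxd1, the Hox promoter with the next highest enrichment, on the plus strand at chr2:74762730-74762979.
Hoxa7 upstream start, marked: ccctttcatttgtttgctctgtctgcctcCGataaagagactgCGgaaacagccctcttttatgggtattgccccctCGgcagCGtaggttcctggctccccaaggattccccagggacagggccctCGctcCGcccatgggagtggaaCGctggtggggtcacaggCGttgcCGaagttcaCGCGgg
Hoxd1, marked: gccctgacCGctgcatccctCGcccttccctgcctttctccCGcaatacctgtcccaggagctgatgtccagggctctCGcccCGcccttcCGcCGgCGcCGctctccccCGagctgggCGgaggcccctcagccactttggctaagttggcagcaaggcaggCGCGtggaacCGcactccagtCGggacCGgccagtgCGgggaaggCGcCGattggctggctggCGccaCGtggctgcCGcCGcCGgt
The next 3 are 250-base stretches with no replicated peak: before the internal RefSeq start of Hoxa7 on the minus strand (chr6:52218574-52218823), before Hoxb1, a paralog of Hoxd1, on the plus strand (chr11:96365508-96365757), and before Hoxa5, the Hox gene with the highest CpG ratio around its 5′-most start, on the minus strand (chr6:52204588-52204837).
Hoxa7 internal start, unmarked: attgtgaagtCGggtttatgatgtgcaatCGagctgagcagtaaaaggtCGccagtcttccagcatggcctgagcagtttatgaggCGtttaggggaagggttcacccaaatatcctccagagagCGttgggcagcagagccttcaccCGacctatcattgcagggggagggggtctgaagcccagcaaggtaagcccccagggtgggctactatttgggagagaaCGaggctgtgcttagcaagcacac
Hoxb1, unmarked: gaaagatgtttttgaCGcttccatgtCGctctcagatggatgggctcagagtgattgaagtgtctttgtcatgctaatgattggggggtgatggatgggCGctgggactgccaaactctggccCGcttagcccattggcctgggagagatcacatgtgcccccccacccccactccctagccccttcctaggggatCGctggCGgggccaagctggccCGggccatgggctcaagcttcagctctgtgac
Hoxa5, unmarked: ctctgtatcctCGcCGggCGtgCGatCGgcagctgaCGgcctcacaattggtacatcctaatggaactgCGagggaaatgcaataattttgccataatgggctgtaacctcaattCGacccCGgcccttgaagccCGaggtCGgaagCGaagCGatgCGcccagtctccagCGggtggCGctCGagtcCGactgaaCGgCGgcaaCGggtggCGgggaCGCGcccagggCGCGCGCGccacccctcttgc
The Hoxa7 peak stretch is from the mm10 (GRCm38) genome, and the others are from RefSeq promoters on GRCm38.p6, a table that holds 22 of the 39 Hox genes.

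Per 100 bases the marked stretches held 5.85 CpG (Hoxa7 peak) and 9.6 (Hoxd1). The unmarked ones held 2.8 (internal Hoxa7 start and Hoxb1) and 11.2 (Hoxa5). Hoxa5 was picked for its high CpG ratio, so the order of these picked stretches says nothing about Hox promoters at large. Hoxd1, with a peak, held 24 CpG dinucleotides in 250 bases, and Hoxa5, without one, held 28. Hoxb1 and the internal Hoxa7 start held 7 each, and the 188 bases of the Hoxa7 peak held 11. The 24 Hox stretches of 250 bases in the table had a median of 12.5 CpG (2 to 35), against 6 over all 32851. A GGGCGG box, searched on both strands, was in Hoxd1 and in the Hoxa7 peak stretch but not in the other 3, and 41.7% of Hox stretches held it, against 32.7% of all. A CCAAT box was in Hoxd1, Hoxb1 and Hoxa5, with shares of 58.3% of Hox and 33.8% of all stretches. TGATNNAT, the core letters of joint Pbx and Hox binding, was in Hoxb1 alone of the 5, with shares of 16.7% of Hox and 7.68% of all stretches. TATAAA was in none of the 5, with 16.7% of Hox stretches and 12.4% of all. These matches are descriptions of letters, not of bound sites.

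The anterior genes of the family, paralog numbers 1 to 4, held 3 of the 5 replicated promoters. Hoxd1, which in the mouse embryo is expressed in somites and in a set of sensory neurons, had an 860-base peak of enrichment 7.84 in pool J, while pool I gave 866 bases and 8.55 (mean enrichment 8.19 ± 0.504, SD, n = 2 pools). In the replicated list it spanned chr2:74762696-74763558, 863 bases, from 284 bases upstream to 578 downstream of the start, with enrichment 8.34 and a −log10 q of 28.6. The pools were close here, with a ratio of J over I of 0.917. The window also holds the start of Haglr, a long non-coding RNA transcribed away from Hoxd1, so the peak cannot be given to 1 of these genes, and it lay in a CpG island at chr2:74762544-74763894.

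Hoxa4, which in the mouse takes part in patterning the neck vertebrae, had a replicated peak of 336 bases at chr6:52191971-52192306, from 553 to 218 bases upstream of its start, with enrichment 3.18 and a −log10 q of 4.42. Neither pool list held it, so this call rests on the pooled reads. The peak also lay within the annotated body of Hoxa3, whose own starts had none.

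Of the central genes, Hoxa7 had the strongest peak in any cluster. Hoxa7, a gene of trunk and axial skeleton patterning, had enrichment 10.6 over 752 bases in pool J, while pool I gave 12.6 over 769 bases (mean 11.6 ± 1.41, SD, n = 2 pools, ratio of J over I 0.842). The replicated peak, at chr6:52221308-52222042, was 735 bases wide with enrichment 12.1 and a −log10 q of 78.5. It ran from 188 bases upstream to 546 downstream of an upstream start of a coding transcript, and its summit lay in a Hoxa7 exon. The other 3 coding starts, further into the gene, lay 2597, 3803 and 3856 bases from the peak, and the start of a transcript annotated for nonsense-mediated decay lay 915 bases away. The peak thus lay at 1 alternative start of the gene, inside a CpG island at chr6:52221059-52222103, and not at the 3 downstream coding starts.

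Hoxc6, which is expressed in the thoracic trunk, had the weakest peak seen in both pools, with enrichment 2.52 over 477 bases for pool J and 3.83 over 345 bases for pool I (mean 3.18 ± 0.924, SD, n = 2 pools). The replicated peak at chr15:102999296-102999653 spanned 358 bases with enrichment 3.20 and a −log10 q of 6.62. It met the window by its edge, since it ended 876 bases from the start of a non-coding Hoxc6 transcript and its summit was 1063 bases away. The coding start of Hoxc6 lay 9920 bases away. This was the 1 replicated Hox peak outside a CpG island, and it lay inside the annotated body of Hoxc5, whose starts were unmarked.

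**Figure D1:**
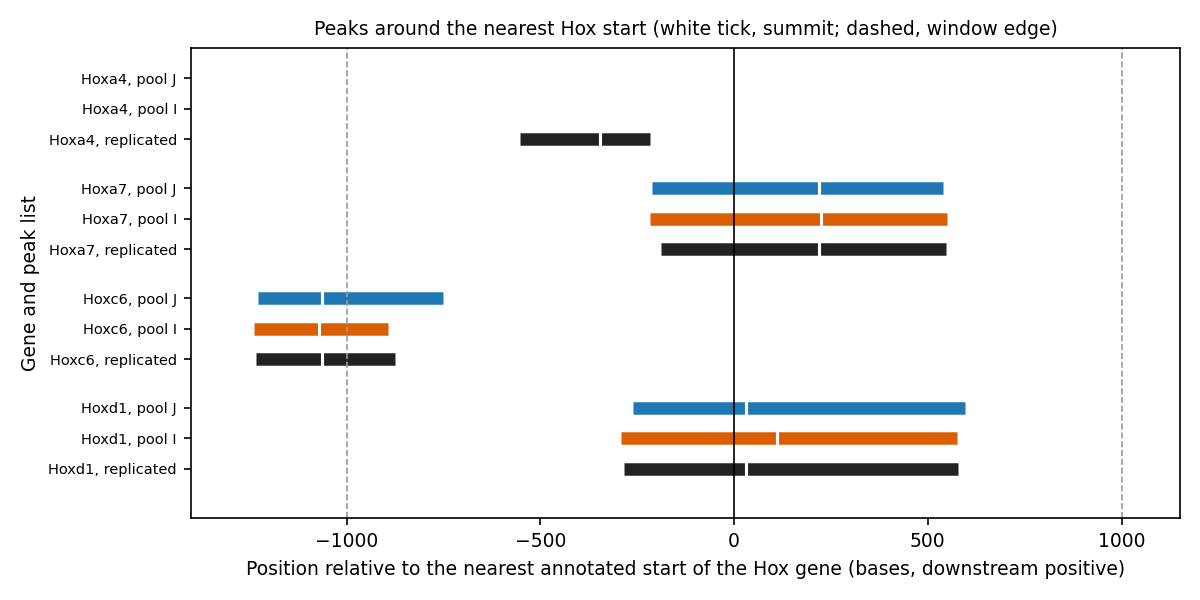
Extent of each peak around the nearest annotated start of the Hox gene, in bases with downstream positive, for pool J (blue), pool I (orange) and the replicated list (black), at 4 marked Hox genes. Hoxa7 and Hoxd1 peaks covered the start in every list, the Hoxa4 peak lay upstream of it, and the Hoxc6 summits lay beyond the dashed edge of the 1000-base window.

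The Hox peaks were low and narrow beside those of other marked promoters. Over all marked promoters of the replicated list the median enrichment was 20.8 and the median peak width 1977 bases. Hoxa7 stood at percentile 17.3 of enrichment and 5.95 of width, and Hoxd1 at 10.7 and 8.26. Hoxc6 stood at 1.35 and 1.51, and Hoxa4 at 1.33 and 1.25. All 5 were below the median of both measures. The medians over all marked promoters were 20.6 and 1909 bases for pool J, and 20.8 and 2043.5 bases for pool I.

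**Figure D2:**
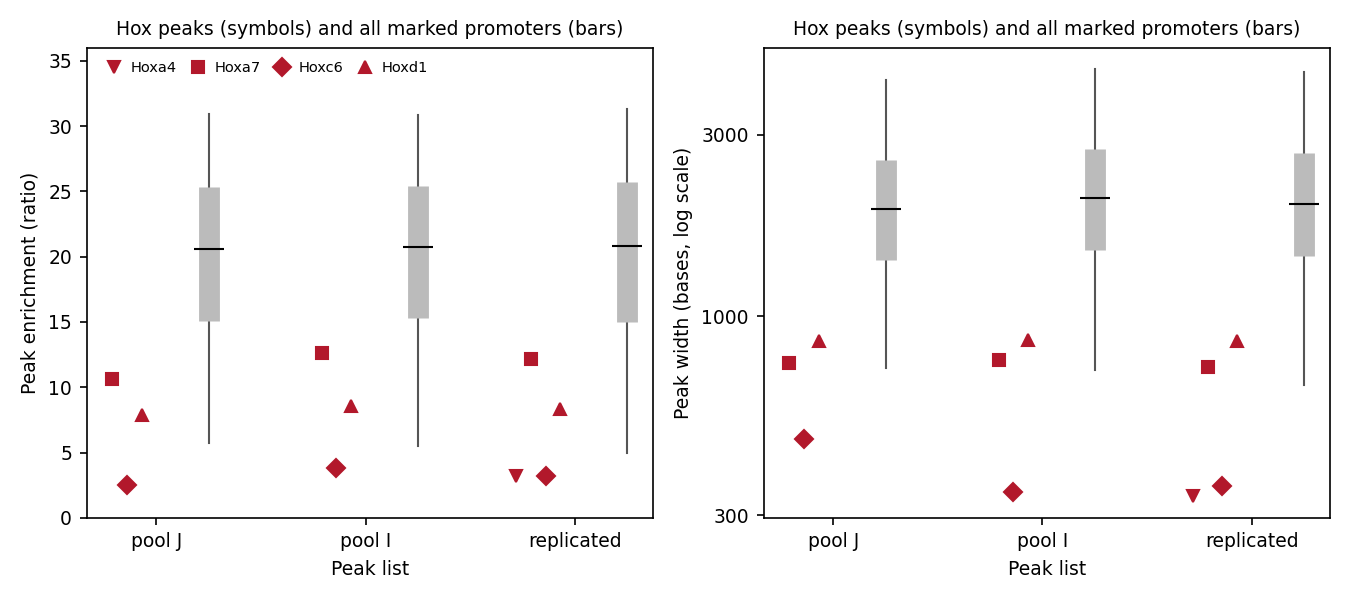
Enrichment (left) and width (right, log scale) of the peaks at marked Hox promoters (red symbols, 1 for each of 4 genes) beside all marked promoters of the same list (line, percentiles 5 to 95; box, 25 to 75; dash, median). In the replicated list these Hox peaks ranged from 3.18 to 12.1, against a median of 20.8.

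The 16 posterior genes, numbers 9 to 13, which pattern the lumbar to tail regions, the limbs and the urogenital tract, were unmarked in the replicated list. Numbers 1 to 4 held 3 of 12, and numbers 5 to 8 held 2 of 11. Numbers 8 to 13 had 0 of 19 marked, but this range begins just above the highest number marked in that list, so its 0 follows from the cut. Of all protein-coding promoters 65.2% were marked in the replicated list. The pool J list had 1 of 12 among numbers 1 to 4 and 2 of 11 among numbers 5 to 8, and the pool I list 2 of 12 and 2 of 11. Numbers 9 to 13 held 0 of 16 in both pools and 1 of 16 in the pooled-read list. The shares of all promoters were 63.9% for pool J, 64.8% for pool I and 65.4% for the pooled-read list.

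By cluster, Hoxa held 3 of the 5 replicated peaks and Hoxb none, where 65.2% of all protein-coding promoters were marked. The Hoxa cluster (chr6:52155590-52260880, 105.3 kb) had 3 of 11 genes marked and 1.30% of its bases in peaks. The Hoxd cluster (chr2:74668310-74765142, 96.8 kb) had 1 of 9 genes marked and 0.891% covered, and Hoxc (chr15:102921103-103036852, 115.8 kb) had 1 of 9 and 0.309%. The Hoxb cluster (chr11:96194316-96368256, 173.9 kb) had 0 of 10 genes marked and no peak in any of the 4 lists. All peaks inside the clusters were at Hox starts by the 1000-base rule.

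Together the clusters spanned 491.8 kb and held 3 peaks of pool J, 4 of pool I and 5 of the replicated list, or 1 replicated peak per 98.4 kb. Peaks covered 0.425% of cluster bases for pool J and 0.527% for pool I (SD 0.0726), and 0.526% in the replicated list. The genome as a whole was covered to 1.42%, and the 100 kb on each side of the clusters to 0.728%. The flanks differed, with 0.396% beside Hoxa, 0.3% beside Hoxb, 0.51% beside Hoxc and 1.70% beside Hoxd. The Hoxa cluster itself, at 1.30%, was thus covered more than its flanks, and the other clusters less. All 3 pool J cluster peaks met one of pool I, and 3 of the 4 of pool I met one of pool J. The same shares over all peaks of each list were not computed, so these counts show nothing particular to the clusters.

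**Figure D3:**
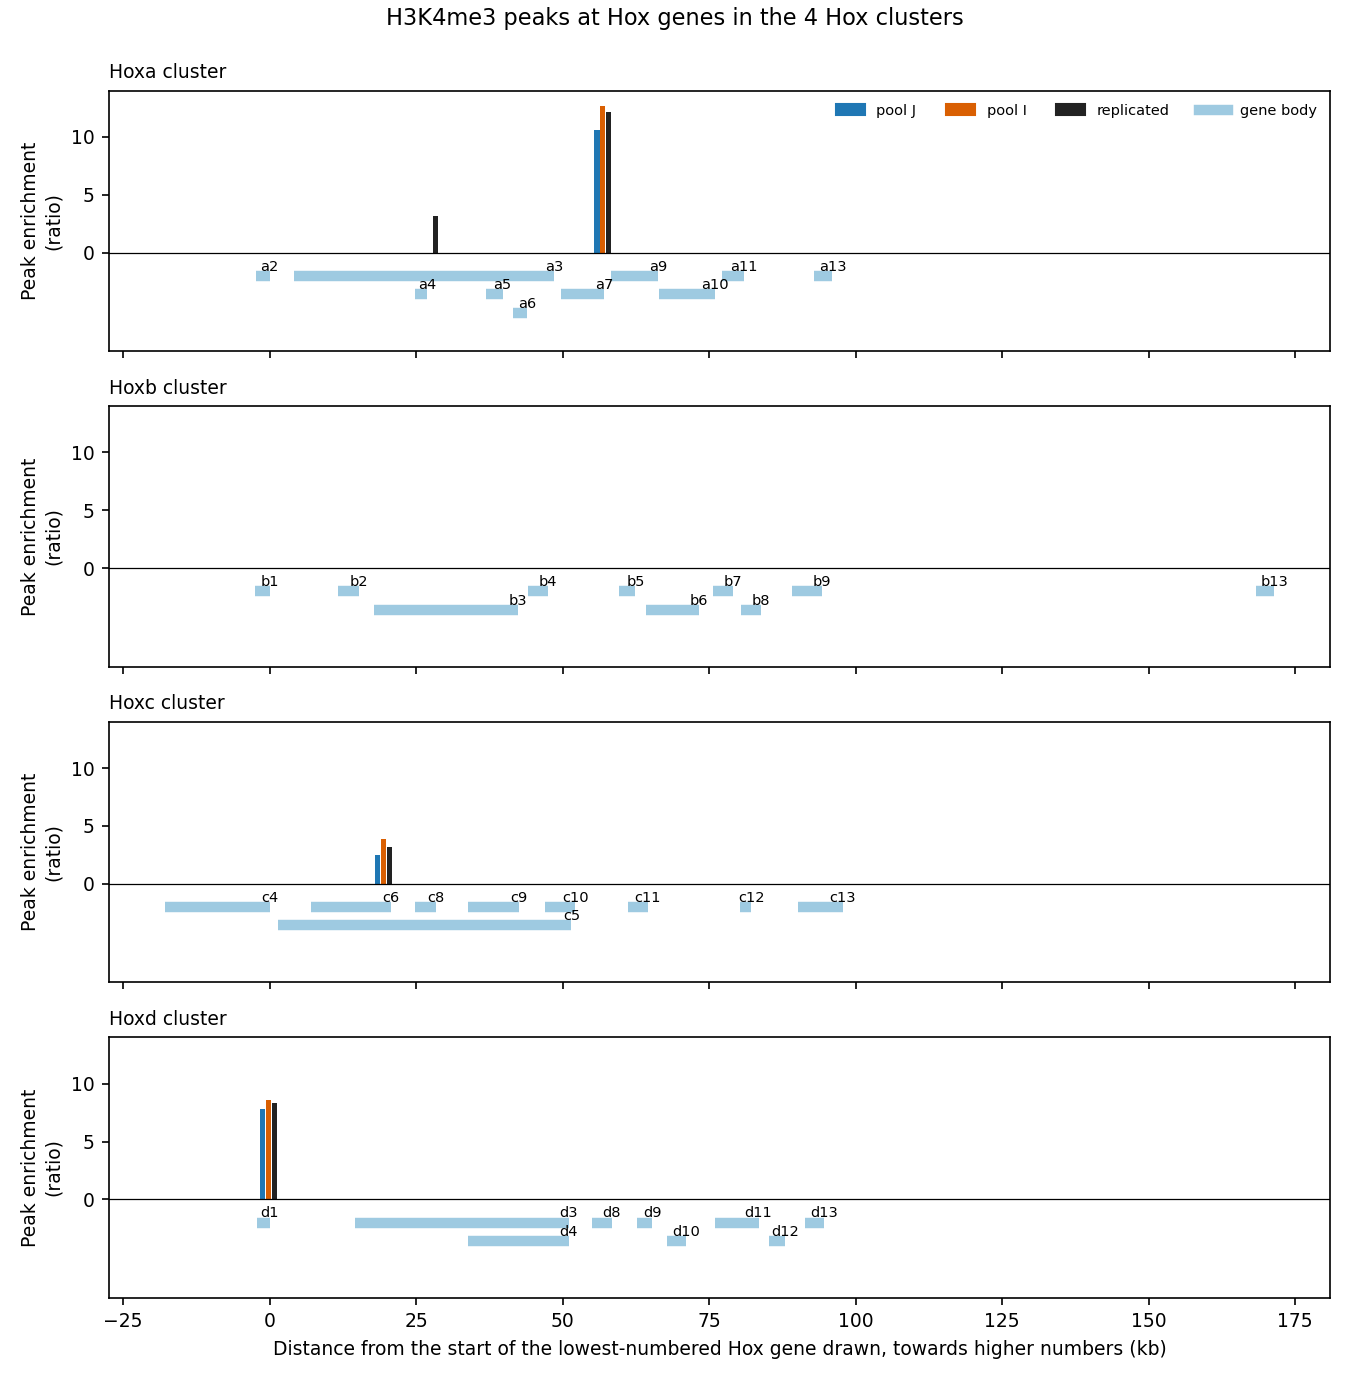
Peaks in the 4 Hox clusters, by distance in kb from the start of the lowest-numbered gene drawn, towards higher numbers, with the height of each bar giving the enrichment in pool J, pool I and the replicated list (bars of 1 peak are drawn 1 kb apart). Blue lines are gene bodies, labelled at the start, for 38 of the 39 genes; Hoxa7 and Hoxd1 have the tallest bars and Hoxb has none.

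The unmarked genes lay far from any peak in some clusters and near in others. In Hoxb the distance from the nearest start of a gene to a replicated peak was 69.5 kb at Hoxb13 to 165 kb at Hoxb6 (median 146 kb over 10 genes). In Hoxa it was 4.15 kb at Hoxa9 to 38.8 kb at Hoxa13 (median 11.8 kb over 8 genes). In Hoxc it was 7.41 kb at Hoxc8 to 78.2 kb at Hoxc13 (median 27.4 kb over 8), and in Hoxd 17.0 kb at Hoxd3 to 88.7 kb at Hoxd13 (median 67.9 kb over 8). The Hoxb genes sat in a peak-free stretch of 339.5 kb (chr11:96124792-96464249) that held 11 coding genes, 10 of them Hox, and stood at percentile 94.1 of the gaps between replicated peaks in the genome. The 8 Hoxd genes without a peak sat in a stretch of 183.1 kb, at percentile 88.1, and the other gap at Hoxd stood at 66.9. The gaps at Hoxa stood at percentiles 48.9 to 84.7, and those at Hoxc at 74.6 and 89.3.

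The clusters are rich in CpG islands, built here from windows of 500 bases that each had at least 55% GC and an observed-to-expected CpG ratio of at least 0.65. Overlapping or adjoining windows were merged, and a merged island as a whole can fall below both minimums. Of 88 islands in the clusters 4 met a replicated peak, or 4.55%, against 65.2% of 21521 islands in the genome. Peaks of pool J met 2 of the 88 (63.9% in the genome), peaks of pool I 3 (64.8%), and those of the pooled-read list 5 (65.5%). By cluster the replicated counts were 3 of 26 in Hoxa, 0 of 25 in Hoxb, 0 of 18 in Hoxc and 1 of 19 in Hoxd. The 4 islands with a peak had a median length of 1224.5 bases and a median CpG ratio of 0.719, and the 84 without one had 939.5 bases and 0.684. Islands over the whole genome had 999 bases and 0.693. Of the 39 Hox genes 38 had an island in a start window, all but Hoxb13, and 5 of these were marked, where 96.1% of the 13159 coding genes with such an island were marked.

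Promoter CpG content placed most Hox genes where other genes carried the mark. Around the 5′-most start the median CpG ratio of Hox promoters was 0.591, against 0.474 over all coding genes, 0.605 over all marked and 0.168 over all unmarked ones. The marked Hox promoters had a median of 0.591 (0.442 to 0.867) and the unmarked ones 0.594 (0.173 to 0.886), so the marked range lay inside the unmarked one. When all genes were weighted to the CpG deciles of the Hox genes, 88.4% were marked, against 12.8% of the Hox genes. In deciles 8 to 10 there were 15 Hox genes, of which Hoxa4 and Hoxd1 were marked, where 98.1% of 6582 genes were marked. In decile 10 it was 1 of 6 Hox genes, Hoxa4, where 98.7% were marked.

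The unmarked CpG-rich promoters of this tissue were in part Hox promoters. Of 124 unmarked genes in deciles 8 to 10, 13 were Hox genes (10.5%). Of 29 in decile 10, 5 were, namely Hoxa5, Hoxa11, Hoxa13, Hoxd8 and Hoxd13 (17.2%). That decile held 6 Hox genes among 2194 genes in all. The others of the 29 included the developmental transcription factors Barhl2, Hand2, Lmx1b, Pou4f1, Tlx3 and Nkx6-1, named after their values were seen. Not all were of this kind, since the histone genes Hist1h2ao, Hist1h2ap, Hist1h2bq and Hist1h2br were also among them.

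**Figure D4:**
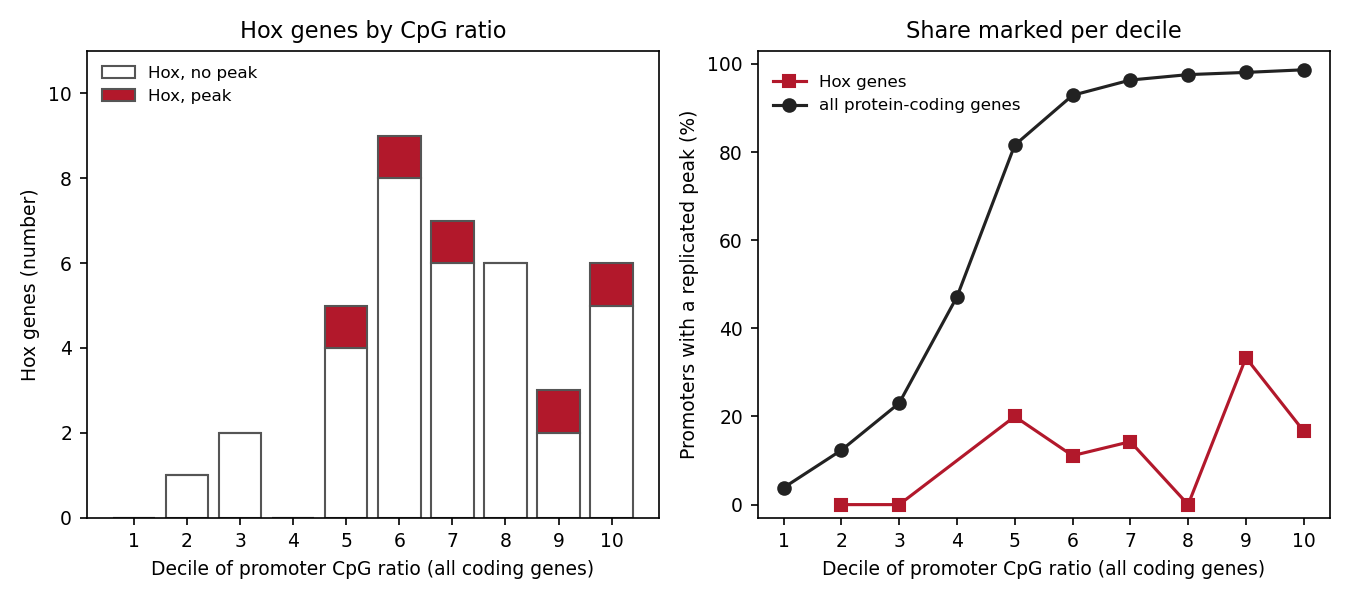
Left, number of Hox genes with (red) and without (white) a replicated promoter peak by decile of promoter CpG ratio over all coding genes. Right, percent of promoters marked in each decile for Hox genes (red squares) and all coding genes (black circles); from decile 5 upward the Hox share was 0 to 33.3% and that of all genes 81.6 to 98.7%.

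Non-coding genes inside the clusters were counted in the same way. Of 19 long non-coding and antisense genes 2 were marked in the replicated list, among them Haglr beside Hoxd1, where 22.4% of all 13369 such genes were marked. Hotair, a long non-coding RNA of the Hoxc cluster, and Hoxb5os, Hoxb3os, Hoxaas3 and Hoxd3os1 were unmarked. The 7 microRNA genes of the clusters, Mir10a and Mir10b, Mir196a-1, Mir196a-2 and Mir196b, Mir615 and Gm44463, were all unmarked, where 13.9% of all 2202 microRNA genes were marked.

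Of the 8 nearest marked coding genes beside the clusters, all but Skap1 had an enrichment of 15.3 or more in the replicated list. Beside Hoxd, Lnpk at 88.9 kb had enrichment 28.5 for pool J and 30.2 for pool I, and Mtx2 at 60.7 kb had 27.7 for pool J and 30.4 for pool I. Beside Hoxa, Skap2 at 143 kb had 15.8 for pool J and 15.5 for pool I, and Hibadh at 285 kb had 24.6 for pool J and 22.5 for pool I. Beside Hoxc, Calcoco1 at 199 kb had replicated enrichment 22.7 and Smug1 at 116 kb had 25.2. Beside Hoxb, Atp5g1 at 119 kb had 20.7, while Skap1 at 96.3 kb had 4.15, with no peak for pool J and 5.32 for pool I. A peak of 792 bases at chr6:52305805-52306596, 44.9 kb beyond Hoxa, met no start window and had enrichment 7.27 for pool J and 7.73 for pool I.

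Partners and regulators of Hox proteins were nearly all marked. All 9 TALE cofactors, the homeodomain proteins that bind DNA with Hox proteins, were marked in each list, with replicated enrichment 18.9 at Pbx2, 22.6 at Pbx3 and 9.64 at Meis1 (median 20.6). All 19 Polycomb genes were marked (24.6 at Ezh1, 29.6 at Ezh2 and 32.6 at Eed, median 25.0), as were all 12 MLL and COMPASS genes (27.8 at Kmt2a, 20.5 at Kmt2b and 32.4 at Kmt2c, median 23.8). Of 19 retinoid and axial regulators of Hox genes 17 were marked, with 14.7 at Rara, 18.3 at Rarb and 20.8 at Rarg (median 14.7). Crabp1 with 4.05, Crabp2 with 4.57, Aldh1a2 with 4.87, Aldh1a3 with 5.99 and Cyp26a1 with 6.50 were lower. The unmarked ones were Aldh1a1, a retinoic acid synthesis enzyme, and Cyp26c1, which degrades retinoic acid. All stood beside the 65.2% of all promoters. The median CpG ratios of these lists were 0.569 to 0.720, in deciles where 96.4% to 98.1% of all coding genes were marked.

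Homeobox genes related to the clusters were marked in part. Of 13 Evx, ParaHox and other Hox-like genes 6 were marked by the replicated list, 3 by pool J's and 4 by pool I's, where 65.2% of all promoters were in the replicated list. The marked ones had low enrichment, with 4.05 at Gsx1, 3.74 at Gsx2, 3.44 at Mnx1, 5.34 at Gbx1, 3.23 at Gbx2 and 3.85 at Meox2 (median 3.80). Evx1 and Evx2, the homeobox genes beside the posterior ends of Hoxa and Hoxd, were unmarked, as were Pdx1, Cdx1, Cdx2, Cdx4 and Meox1. Of 14 hindbrain and spinal cord markers 6 were marked, beside the same 65.2%, with 3.36 at En1, 5.54 at En2, 4.36 at Phox2a and, as the highest, 7.87 at Irx3; the single-pool lists marked 4 of the 14 (pool J) and 5 (pool I). Lbx1, Olig3, Ptf1a, Tlx3, Slc6a5, Fev and Irx2 were among the unmarked. The median CpG ratio was 0.666 for the Hox-like genes and 0.711 for the hindbrain and spinal cord markers. In the deciles of all coding genes that hold these ratios 97.6% and 98.1% were marked.

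Other cells in the tissue were looked for by their markers. Of 10 blood cell genes 2 were marked, among them Kit with 17.2, and the globin genes Hba-a1 and Hbb-bs, the heme enzyme gene Alas2 and the leukocyte gene Ptprc had no peak. Of 12 mesenchyme and vessel genes 9 were marked, with 6.30 at the collagen gene Col1a1 and 5.07 at Col1a2 and a median of 5.65, and without Dcn, Lum and Acta2. Of all promoters 65.2% were marked in the replicated list. The median CpG ratio was 0.216 for the blood genes and 0.320 for the mesenchyme and vessel genes. In the deciles of all coding genes that hold these ratios 23.0% and 47.15% were marked. Kit itself had a ratio of 0.706, in a decile where 98.1% were marked, so its peak alone says little about blood cells. Whether blood, vessel or connective tissue cells, some of which are known to express Hox genes, gave any Hox peak was not tested.

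A stricter threshold left the strongest peaks. At a −log10 q of at least 10, 2 Hox promoters were marked, Hoxa7 and Hoxd1, where 62.3% of all promoters were marked. The peak at Hoxc6 left the count with a window of 500 bases, with the summit rule and with coding transcript starts alone.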

How the data were processed

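The authors deposited peak lists on mm10 from ChIP-seq of H3K4me3 in 4 libraries of 2 pools, per the labels. Neither aligner nor peak caller is given in the sources used here. The enrichment of each peak is a deposited ratio, taken as fold over control because the deposited text files list such tracks beside it. The −log10 q of each peak, as deposited, served as a filter. The deposited display score and −log10 p were not used. Positions are printed counted from 1. Python 3.11.15, numpy 2.4.6, pandas 2.3.3 and matplotlib 3.10.9 were used with GENCODE M21. Windows, distances, coverage, CpG islands and CpG ratios were computed from the lists and the genome sequence; the scripts were tested on simulated data. No p-value was computed.

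The members and the gene lists were chosen with earlier results of these data known. The rule for names took every Hox gene with a peak in any list, Hox genes with a peak in the body, other genes with a start at those peaks, the nearest marked gene on each side of a cluster, and of each other list the first 3 members and those against its majority, or 3 of these where they were more than 5. Further members of those lists were named after their values were seen. Samples were grouped by the pool in the labels. Each pool's 2 libraries share 1 alignment, so 1 list per pool is the unit. Some genes that the naming rule takes, 1 Hox gene among them, stay in all counts but are not reported here by name.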

Additional observations from a re-analysis of the deposited data

Results flagged for a closer look

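Hoxd9, a gene of the posterior Hoxd cluster, had a peak in the pooled-read list alone, a list that the comparisons above do not rest on. The peak was 217 bases wide, from 78 to 294 bases downstream of the start, with enrichment 2.23 and a −log10 q of 0.959. No peak of pool J, of pool I or of the replicated list lay there. The antisense gene Gm28793 has a start within 1000 bases of the same peak.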

How the results depend on the processing

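The count of marked Hox promoters was 5 of 39, where 65.2% of all coding genes were marked. It was 4 with a window of 500 bases, the 5′-most start, coding transcript starts, the summit rule or a −log10 q of at least 5. It was 5 with a window of 2500 bases or at least 100 bases of peak in it. Of all coding genes 61.6% (5′-most start) to 66.2% (window of 2500 bases) were marked under these settings. Under a −log10 q minimum of 10 it was 2, where 62.3% of all coding genes were marked. With RefSeq starts it was 1 of the 22 Hox genes that have an entry, where 65.4% of all 16539 genes with one were marked. Hoxa7 has one, but its RefSeq start is unmarked, so its call ends there and Hoxd1 alone stays. With 1 pool's list it was 3 (pool J, where 63.9% of all coding genes were marked) to 4 (pool I, 64.8%). Peaks inside the clusters numbered 3 to 4 with 1 pool's list, and 2 under the −log10 q minimum of 10. The covered share was 0.453% with clusters widened by 10 kb, 0.325% under the −log10 q minimum of 10, and 0.425% to 0.527% with 1 pool's list. Of the Evx, ParaHox and other Hox-like genes 3 to 4 were marked with 1 pool's list, where 63.9% to 64.8% of all coding genes were. With deciles of GC content the weighted share of all genes was 84.9%, and with the highest CpG ratio among a gene's starts 92.0%. Among the main counts and shares, those of the other gene lists included, 11 values under other settings moved and 46 did not. A count was taken as moved at over 1.5 times and the covered share at over the SD of the pools. For the weighted share the limit was its 95% binomial interval. Many of the 46 belong to the other gene lists, some of them fully marked in every peak list. The tally therefore does not measure how stable the Hox results were. The other gene lists under other peak lists, and the CpG island scan, were chosen after seeing the data. Hoxa4 rests on pooled reads and leaves the count under either pool's list. No paired analysis was possible because each pool has 1 peak list. Depth is unknown, so an unmarked promoter means no called peak, not that the mark is absent.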
